A study of Mus musculus with 25 samples.

Results

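The dyneins are motor proteins that pull along microtubules, and their subunits were followed here through mouse spermatogenesis. The set held every gene symbol that started with Dnah, Dnaic, Dnali, Dnaaf, Dync or Dynl, plus Dnal1 and Dnal4, without symbols ending in -ps, which gave 40 of the 29244 symbols in the count tables. By role, 23 were axonemal (5 outer arm heavy chains, 10 inner arm heavy chains, 5 intermediate and light chains and 3 assembly factors), 7 were chains of cytoplasmic dynein, 9 were light chains that several dyneins share, and 1 was Dnah2os, a symbol for an RNA antisense to Dnah2. The question was when axonemal and cytoplasmic subunits were expressed across germ cell stages and across strains.

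Testes were dissociated and profiled by Drop-seq, in which transcripts are captured by their 3′ ends in droplets and copies of one molecule collapse to 1 count through a unique molecular identifier (UMI). The 25 libraries were 11 of wild-type C57BL/6 testis (3 months 1 day to 9 months 14 days of age), 6 of Mlh3-/- testis (B6;129, 2 months 21 days to 8 months 30 days), 2 of Cul4a-/- testis (B6;129, 1 month 18 days and 1 month 21 days), 2 of CNP eGFP BAC TRAP testis (C57BL/6, 2 months 14 days and 2 months 16 days) and 1 each of sorted spermatogonia, primary spermatocytes, secondary spermatocytes and spermatids. The sorted spermatogonia came from pooled litter mates of 7 days labelled Pouf51-EGFP on C57BL/6, where the study's methods name a Pou5f1-EGFP reporter on a B6;CBA background, and the other sorted cells from wild-type mice of 2 months 21 days. Wild-type libraries 1 and 2 and the spermatogonia were dissociated with enzymes and all others mechanically. Wild-type libraries 1 and 3, Mlh3-/- libraries 1 and 2 and the 3 sorted spermatocyte and spermatid libraries were sequenced on a MiSeq. Both knockouts were labelled B6;129 and so differed from wild-type in genetic background as well, although the study's methods write the background of the Mlh3 line as B6.129. The Cul4a-/- and CNP mice were younger than every wild-type mouse. Genotype and background in the knockouts, and genotype or transgene and age in Cul4a-/- and CNP, cannot be told apart. Ages are as labelled, and the sample list of the study exchanges those of the Cul4a-/- and CNP mice. Mlh3 is a mismatch repair protein that resolves meiotic crossovers, Cul4a is a scaffold of ubiquitin ligases, and the CNP line carries a bacterial artificial chromosome transgene for a tagged ribosome.

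A dynein consists of heavy chains, which burn ATP and walk, and of intermediate, light intermediate and light chains, which assemble and anchor the complex. Axonemal dyneins sit as outer and inner arms on the microtubule doublets of cilia and flagella, where they slide the doublets and drive beating; they are assembled in the cytoplasm with the help of dedicated factors before they reach the axoneme. Cytoplasmic dynein-1 carries cargo, nuclei and chromosomes toward the minus ends of microtubules and serves the spindle, and dynein-2 carries cargo back along the growing axoneme. In the testis the sperm tail is built in spermatids, after both meiotic divisions.

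Cells were clustered without the dynein genes and named by markers, so that the classes did not rest on the genes described. Of 48642 barcodes 36619 passed the filters on cells, and of 45 clusters 33 could be named. The unnamed clusters held 16393 of 25052 wild-type cells (65.4%), 680 of 2786 Mlh3-/- cells, 1609 of 5462 Cul4a-/- cells and 1621 of 2462 CNP cells, and none of the class values includes them. Among them, clusters 11 and 20 (854 and 580 cells, 27.9% and 49.1% wild-type) scored highest for pachytene but had under 3 markers. The pachytene-like class may therefore miss part of pachytene, and its step to the next class may not join adjacent stages. In wild-type, 105 cells were leptotene/zygotene-like and 344 pachytene-like, 1893 stood in the meiotic division-like class, and 2322 resembled round and 3719 elongating spermatids. The markers of the meiotic division-like class are among the study's key genes for diplotene and the divisions together. That class may thus hold diplotene spermatocytes, and steps into meiotic division mean steps into it. Its cluster 8 held 968 wild-type and 33 Mlh3-/- cells. Levels are given as CPM, the UMIs of a gene scaled to a common total of 1e6 UMIs, for all cells of a class summed within a library of at least 10 such cells, as mean ± SD over libraries, and they rest on 3′ ends with no correction for gene length. Whole libraries held 357235 to 3829176 UMIs in wild-type, 450745 to 6340116 in Mlh3-/-, 9691555 and 9745302 in Cul4a-/- and 775386 and 1054964 in CNP, and the Cul4a-/- libraries were the deepest of all. Barcode sequences found in more than 1 library numbered 430, in 991 cells. The disrupted genes were no check of the labels, since 3′ counts need not cover the deleted part, which is not given in the sources used here: Mlh3 stood at 44.7 ± 18.4 CPM over whole wild-type libraries (SD, n = 11) and 49.8 ± 22.7 CPM in Mlh3-/- (n = 6), and Cul4a at 30.7 ± 12.5 and 51.8 ± 3.84 CPM (n = 2) in wild-type and Cul4a-/-.

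Transcripts of spermatids were counted in every wild-type class. The 12 elongating spermatid markers, protamine and transition protein genes among them, summed to 133292 ± 14994 CPM in elongating spermatid-like cells (SD, n = 11) but also to 21634 ± 8511 CPM in leptotene/zygotene-like (n = 4), 5548 ± 2172 CPM in pachytene-like (n = 9) and 49285 ± 18955 CPM in Sertoli-like cells (n = 6), and all 12 were detected in each of these classes. Sertoli cells are somatic. In Sertoli-like cells of Mlh3-/- testes, which held no spermatid-like cells, 3 of the 12 were detected, with the protamine and transition protein genes at 0. The mean level of each gene in Sertoli-like cells was therefore set beside its germ cell levels. Of the 34 members with at least 100 UMIs in the wild-type germ classes, 18 stood at or below their Sertoli-like mean in leptotene/zygotene-like cells, 9 in pachytene-like, 5 in meiotic division-like, 14 in round spermatid-like and 24 in elongating spermatid-like cells. How far free RNA set these levels was not tested.

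Most of the dynein genes with at least 100 UMIs had their highest wild-type mean in pachytene-like or meiotic division-like cells, before the stage in which the tail is built. Among the 34 members, the wild-type mean was highest in pachytene-like cells for 13, in meiotic division-like cells for 13, in round spermatid-like cells for 5, in elongating spermatid-like cells for 2 and in leptotene/zygotene-like cells for 1. Of the 21 axonemal ones, 9 were highest in pachytene-like, 8 in meiotic division-like and 4 in round spermatid-like cells. Of the 5 cytoplasmic ones, 3 were highest in pachytene-like and 2 in meiotic division-like cells. The 8 shared light chains were spread over all 5 classes, with 3 in meiotic division-like and 2 in elongating spermatid-like cells. The cut of 100 UMIs limits these counts, since the wild-type leptotene/zygotene-like class held 113642 UMIs and the meiotic division-like class 3677010. Members confined to early cells pass that cut less easily. Spermatogonia are not among the 5 classes, and the share of all genes highest in each class is not given here. Pooled over libraries, Dnah1 was highest in meiotic division-like instead of pachytene-like cells.

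**Figure D1:**
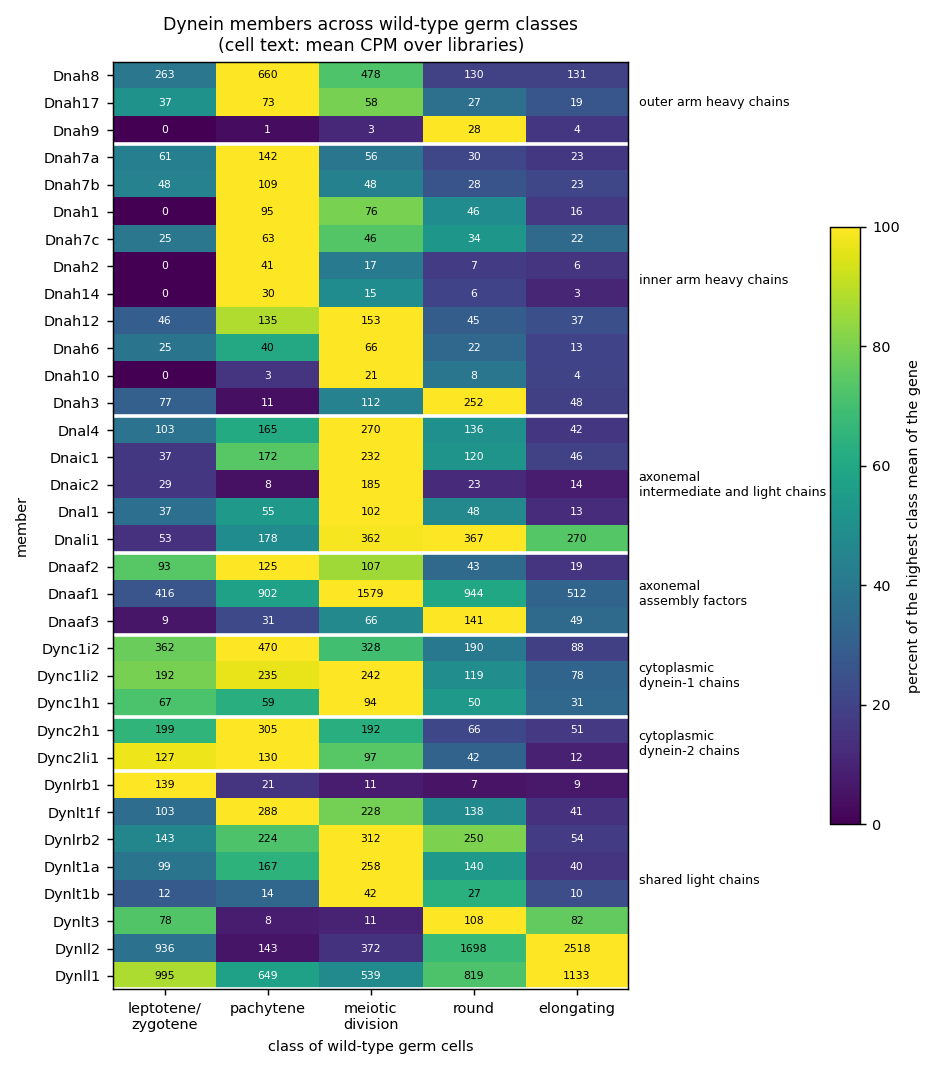
Mean level of 34 dynein members in 5 classes of wild-type germ cells, grouped by role; colour gives the percent of the highest class mean of the gene, and the number in each cell is the mean in CPM over the wild-type libraries with at least 10 cells (4 for leptotene/zygotene, 9 for pachytene, 11 for the others). The bright cells lie in the pachytene and meiotic division columns for 26 of the 34 members, and Dynll1 and Dynll2 are brightest in the elongating column.

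The summed levels of the sides were highest in different classes, as a description without a test. Axonemal members together stood at 1370.1 ± 183 CPM in leptotene/zygotene-like cells (SD, n = 4), 3040.1 ± 467 CPM in pachytene-like (n = 9) and 4055 ± 521 CPM in meiotic division-like cells (n = 11), and at 2489 ± 281 CPM in round and 1317 ± 112 CPM in elongating spermatid-like cells. Dnaaf1 alone made up 902 and 1579 CPM of the sums in pachytene-like and meiotic division-like cells. By gene, 9 of the 21 axonemal members with at least 100 UMIs had their highest mean in pachytene-like cells and 8 in meiotic division-like cells. Cytoplasmic members had their highest sum in pachytene-like cells, with 972 ± 382, 1222 ± 189, 962 ± 210.0, 475 ± 86.6 and 266 ± 64.6 CPM over the same 5 classes, and by gene 3 of 5 were highest there and 2 in meiotic division-like cells. The shared light chains stood at 2505 ± 624.8 CPM in leptotene/zygotene-like cells, their lowest sum of 1522 ± 319 CPM in pachytene-like cells, 1773 ± 589 and 3187 ± 505 CPM in the next classes and 3887 ± 507 CPM in elongating spermatid-like cells. Dynll1 and Dynll2 made up most of this last sum, with 1133 and 2518 CPM, while Dynlrb2, Dynlt1a, Dynlt1b and Dynlt1f had the lowest of their 5 means there. In Sertoli-like cells the axonemal, cytoplasmic and shared sums were 2071 ± 552, 590.1 ± 189.6 and 2369.5 ± 786 CPM (n = 6). These sums are shares of all UMIs, so they fall when other transcripts take a larger share, as the elongating spermatid markers did in the last class.

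**Figure D2:**
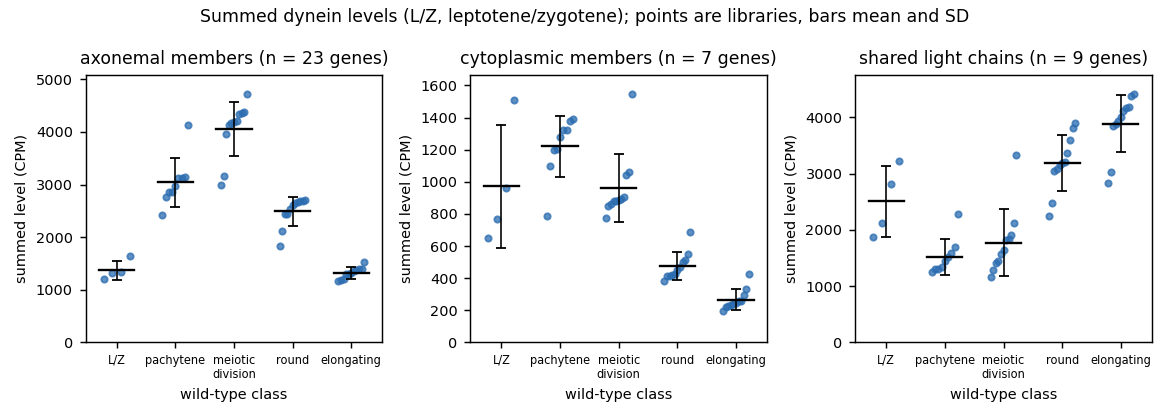
Summed level in CPM of the 23 axonemal members, the 7 cytoplasmic members and the 9 shared light chains in each wild-type class; each point is a library, and the bars are the mean and SD. The axonemal points are highest in meiotic division, with a mean of 4055 CPM, the cytoplasmic points in pachytene, with 1222 CPM, and the shared light chains in elongating spermatids, with 3887 CPM.

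Each step between neighbouring named classes was tested over all genes with edgeR's quasi-likelihood test and Benjamini-Hochberg adjustment at 0.05, with every library compared with itself. The step into pachytene used the 10 libraries of 4 strains with enough leptotene/zygotene-like cells (4 wild-type, 3 Mlh3-/-, 2 Cul4a-/- and 1 CNP), and the 3 later steps used wild-type libraries. From leptotene/zygotene-like to pachytene-like cells, 18 of 37 members rose and 5 fell, where 9.41% of all 14870 genes rose and 17.2% fell. The median log2 fold change was 1.11 over the members and -0.13 over all genes. In the 4 wild-type libraries alone, a fit chosen after seeing the data, Dnaaf1, Dnah8 and Dnaic1 rose and Dynll2 and Dynlrb1 fell among 33 members tested, beside 312 and 527 of 8652 genes, with medians of 0.84 and -0.02, so that the other calls into pachytene rest on the libraries of all strains. From pachytene-like to meiotic division-like cells, 9 of 39 members rose and 14 fell, beside 14.7% and 24.3% of 17289 genes, with medians of -0.16 and -0.08. From meiotic division-like to round spermatid-like cells, 8 of 39 rose and 24 fell, beside 23.7% and 26.6% of all genes, with medians of -0.67 and -0.10. From round to elongating spermatid-like cells, 3 rose and 15 of 39 fell, beside 17.5% and 20.2% of all genes, with medians of -0.22 and -0.04.

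By side, the first step raised 12 of 21 axonemal members tested, 3 of 7 cytoplasmic ones and 3 of 9 shared light chains, and lowered 1, 0 and 4 of them. At the second step 8 of 23 axonemal members rose and 7 fell, while 0 of 7 cytoplasmic members rose and 3 fell, and 1 of 9 shared light chains rose and 4 fell. At the third step 4 axonemal members rose and 16 fell, 0 cytoplasmic members rose and 6 fell, and 4 shared light chains rose and 2 fell. At the last step 1 axonemal member rose and 9 fell, 0 cytoplasmic members rose and 2 fell, and 2 shared light chains rose and 4 fell. The second step depended on the scaling. With factors over all tested genes, which put the median of all genes at 0.46, 19 members rose and 4 fell, beside 26.5% and 13.6% of all genes. With library totals, with a median of 0.09, 12 rose and 11 fell, beside 18% and 20.8%. Under factors over all genes, Dnah8, Dync2li1, Dynll1 and Dynlt1f changed sign, and Dnah14, Dnah17, Dnah7b, Dnah7c, Dync2h1 and Dynlrb1 no longer passed. At the first step, factors over all genes (median 0.67) gave 24 up and 4 down, beside 23% and 7.89% of all genes, and turned the sign of Dynll1. At the last step, library totals (median -0.49) gave 2 up and 24 down, beside 9.6% and 33.3% of all genes.

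**Figure D3:**
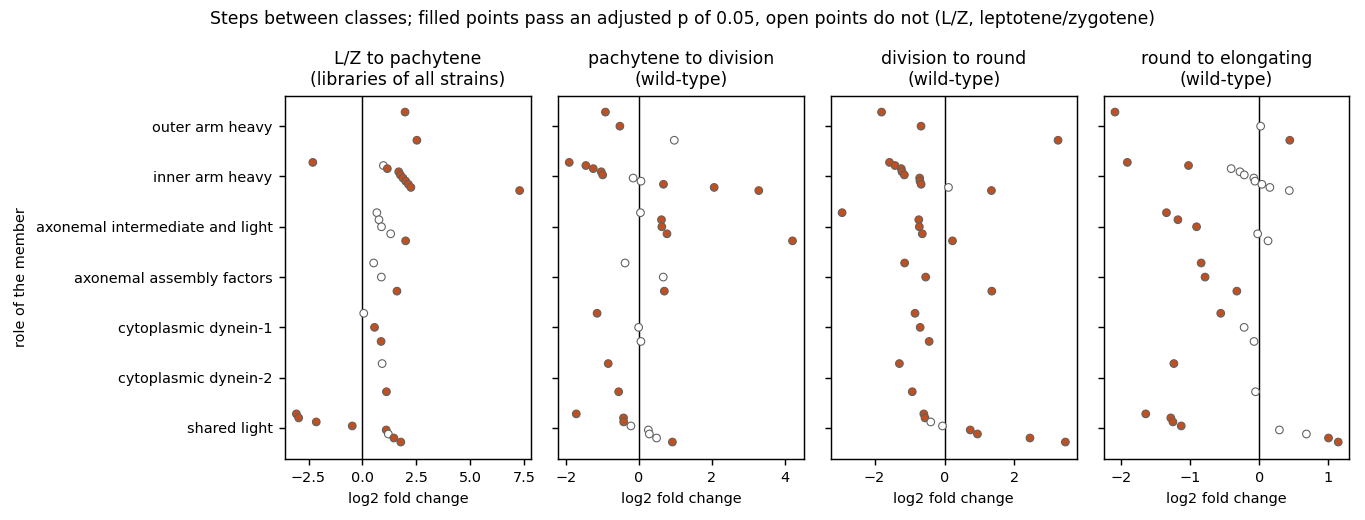
Log2 fold change of each of the 34 members (horizontal axis) by role (vertical axis) at 4 steps between classes, the first over libraries of 4 strains and the others in wild-type; filled points passed edgeR's quasi-likelihood test at 0.05 after adjustment and open points did not. Inner arm heavy chains lie mostly to the right at the step into pachytene (8 of 10 rose) and to the left at the step into round spermatids (8 of 10 fell), and the shared light chains scatter to both sides at every step.

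Among the outer arm heavy chains, Dnah8, a heavy chain of sperm outer arms, was highest in pachytene-like cells. In the 4 wild-type leptotene/zygotene-like sums its mean was 263 ± 64.1 CPM (SD). In the 9 wild-type pachytene-like sums its level was 527 to 1103 CPM (median 624.5), in the 11 meiotic division-like sums 303 to 658 CPM (median 479), and in round spermatid-like sums 102 to 195 CPM (median 121). Every meiotic division-like sum lay above every round spermatid-like one, and the level fell (log2 fold change -1.80 ± 0.10 (SE), edgeR adjusted p = 1.99e-75). The level rose into pachytene over the libraries of all strains by 1.98 on the log2 scale (adjusted p = 1.65e-15), and by 1.12 in wild-type libraries alone (adjusted p = 0.0243). Between round and elongating spermatid-like cells the means were 129.6 and 131 CPM, and the fitted log2 fold change of 0.44 turned to -0.11 with library totals, so that no direction is given there. Dnah17, the partner of Dnah8 in sperm outer arms, rose into pachytene over the libraries of all strains (log2 fold change 2.52 ± 0.58 (SE), edgeR adjusted p = 0.000148). This rise rested on 4 UMIs in the leptotene/zygotene-like sums, and the groups overlapped. In wild-type libraries alone Dnah17 did not pass (log2 fold change 1.54, edgeR adjusted p = 0.381). Its wild-type mean went from 72.5 ± 34.4 CPM in pachytene-like (SD, n = 9) to 26.7 ± 12.9 CPM in round spermatid-like cells (n = 11).

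Dnah9, an outer arm heavy chain known from motile cilia, was low and late. It was counted at 0 to 12.0 CPM (median 2.25) in meiotic division-like and 15.9 to 40.1 CPM (median 28.6) in round spermatid-like sums, and the highest of the former lay below the lowest of the latter. It rose there (log2 fold change 3.25 ± 0.34 (SE), edgeR adjusted p = 1.81e-20) and fell again in elongating spermatid-like cells, at 0 to 10.96 CPM (median 3.67) (log2 fold change -2.09 ± 0.33 (SE), edgeR adjusted p = 2.06e-09), without overlap. Dnah5 and Dnah11, heavy chains of ciliary outer arms, had 38 and 7 UMIs in all wild-type germ classes together and are not described by class.

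Of the inner arm heavy chains 8 of 10 rose into pachytene, as did 2 of the 3 outer arm heavy chains tested. Dnah2, a heavy chain of the 2-headed inner arm, had 0 UMIs in the 10 leptotene/zygotene-like sums and 28.4 to 213 CPM (median 49.5) in the pachytene-like sums of the same libraries. With 3 counts over the group as the floor, it was at least 5.06-fold higher in pachytene-like cells (edgeR adjusted p = 9.18e-06), and all pachytene-like sums lay above 0. Dnah7a, a heavy chain of a 1-headed inner arm, was at 0 to 144 CPM (median 0) in leptotene/zygotene-like and 57.7 to 228 CPM (median 128) in pachytene-like sums, and the groups overlapped. It rose (log2 fold change 2.13 ± 0.45 (SE), edgeR adjusted p = 3.42e-05) and then fell into meiotic division (log2 fold change -1.45 ± 0.20 (SE), edgeR adjusted p = 6.61e-12), where wild-type levels were 34.4 to 83.5 CPM (median 55.0). Reads of Dnah7a, Dnah7b and Dnah7c, near-identical copies on chromosome 1, may have been split between them, so single copies are uncertain; Dnah7b and Dnah7c also rose into pachytene (by 1.15 and 1.88 on the log2 scale). Dnah14 rose at the same step (log2 fold change 2.25 ± 0.79 (SE), edgeR adjusted p = 0.0211) from 0 to 40.7 CPM (median 0) to 6.72 to 107 CPM (median 46.2), and this call was lost without Cul4a-/- library 1, Mlh3-/- library 2 or wild-type library 11. Dnah1, mutated in men with short sperm tails, rose as well (by 1.68), as did Dnah12 and Dnah6 (by 2.01 and 1.76).

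Dnah3 and Dnah10 rose later. Dnah3, an inner arm heavy chain, was at 0 to 28.2 CPM (median 10.9) in pachytene-like, 0 to 228 CPM (median 99.1) in meiotic division-like and 156 to 326 CPM (median 266) in round spermatid-like sums of wild-type. It rose at both steps (log2 fold change 3.28 ± 0.35 (SE), edgeR adjusted p = 6.79e-20, then a log2 fold change of 1.34 (adjusted p = 3.49e-33)), and the sums overlapped at both. In elongating spermatid-like sums it stood at 33.0 to 68.5 CPM (median 46.5), below every round spermatid-like sum (log2 fold change -1.91 ± 0.13 (SE), edgeR adjusted p = 4.65e-48). Dnah10, the partner of Dnah2, had 3 UMIs in 9 pachytene-like and 77 UMIs in 11 meiotic division-like sums, a ratio of pooled levels of 6.48 (95% counting interval 2.13 to 32.1, edgeR adjusted p = 0.00677). In that step Dnah2 moved the other way, from 28.2 to 60.5 CPM (median 41.1) to 0 to 44.9 CPM (median 13.0) (log2 fold change -1.91 ± 0.36 (SE), edgeR adjusted p = 5.64e-07). Dnah12 fell into round spermatids without overlap, from 88.3 to 217 CPM (median 152) to 23.6 to 54.3 CPM (median 49.5) (log2 fold change -1.58 ± 0.13 (SE), edgeR adjusted p = 1.92e-31), and 7 further inner arm heavy chains fell at that step.

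Of the axonemal intermediate and light chains, 4 of 5 rose and none fell into the meiotic division-like class. The largest change was in Dnaic2, an intermediate chain of outer arms. Its level was 0 to 21.8 CPM (median 6.72) in the 9 pachytene-like sums and 75.8 to 268 CPM (median 200.1) in the 11 meiotic division-like sums, with no overlap, and it rose (log2 fold change 4.20 ± 0.31 (SE), edgeR adjusted p = 5.91e-40). In round spermatid-like sums it was back at 7.85 to 30.6 CPM (median 23.4), again with no overlap (log2 fold change -2.93 ± 0.15 (SE), edgeR adjusted p = 2.83e-87). Its Sertoli-like mean was 122 CPM, from 9 UMIs, above all its germ cell means but that of meiotic division. Dnaic1, the other outer arm intermediate chain, had risen a step earlier (log2 fold change 2.00 (adjusted p = 5.44e-05) into pachytene) and had means of 172 ± 60.03 and 232 ± 107 CPM in pachytene-like and meiotic division-like cells. Dnal1 and Dnal4, light chains, and Dnali1, a light intermediate chain of inner arms, rose into meiotic division by 0.63, 0.62 and 0.77 on the log2 scale, and Dnal1 and Dnal4 fell at both later steps. Dnal1 was at 13.6 to 74.4 CPM (median 52.4) in round and 0 to 27.99 CPM (median 14.4) in elongating spermatid-like sums (log2 fold change -1.34 ± 0.22 (SE), edgeR adjusted p = 5e-09), which overlapped. For Dnali1 the fitted log2 fold change of 0.23 into round spermatids was 0.04 with library totals and did not pass there, so that no direction is given. It had means of 362, 367 and 270.0 CPM in the last 3 classes.

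The assembly factors act in the cytoplasm before arms reach the axoneme. Dnaaf1 had the most UMIs of the axonemal members in wild-type germ classes, with 416 ± 91.9 CPM in leptotene/zygotene-like (SD, n = 4), 902 ± 121 CPM in pachytene-like (n = 9) and 1579 ± 381 CPM in meiotic division-like cells (n = 11). It rose at both steps (log2 fold change 1.60 (adjusted p = 5.58e-12), then 0.69 (adjusted p = 4.19e-13), edgeR) and fell at the next ones, of which the last did not pass in DESeq2 (adjusted p = 0.102). Dnaaf2 was highest in pachytene-like cells, at 125 ± 33.7 CPM, and fell at the 2 steps that followed the meiotic division-like class. Dnaaf3 was the late factor, at 49.4 to 103 CPM (median 60.8) in meiotic division-like and 81.4 to 203 CPM (median 141) in round spermatid-like sums, which overlapped (log2 fold change 1.35 ± 0.13 (SE), edgeR adjusted p = 9.81e-24). The 3 factors thus had their highest means in 3 successive classes.

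The chains of cytoplasmic dynein were already present in leptotene/zygotene-like cells, where none of the 5 described stood at or below its Sertoli-like mean. Dync1h1, the heavy chain of dynein-1, did not pass at the first 2 steps, with 67.4 ± 95.01, 59.4 ± 33.0 and 94.3 ± 75.1 CPM, and fell into round spermatids (log2 fold change -0.70 (adjusted p = 2.08e-05), edgeR). Dync1i2, its intermediate chain, rose into pachytene over the libraries of all strains (log2 fold change 0.56), but did not pass in wild-type alone (0.56, adjusted p = 0.378). Its wild-type mean was 469.7 ± 118 CPM in pachytene-like cells (SD, n = 9), and it fell at every later step, to 88.5 ± 44.3 CPM in elongating spermatid-like cells (n = 11), although its fall into round spermatids did not pass in DESeq2 (adjusted p = 0.0509). Dync1li2, a light intermediate chain, rose at the same step (log2 fold change 0.86) and fell into round spermatids (log2 fold change -0.85). Dync2h1, the heavy chain of dynein-2, rose into pachytene over the libraries of all strains (by 1.11), had a wild-type mean of 305 ± 85.6 CPM there and fell at the next 2 steps to 65.7 ± 20.7 CPM in round spermatid-like cells. Its light intermediate chain Dync2li1 had means of 130.3, 96.6, 41.5 and 12.1 CPM from pachytene-like to elongating spermatid-like cells. Dync1i1 and Dync1li1, the other intermediate and light intermediate chains, had 49 and 69 UMIs in the wild-type germ classes; Dync1li1 fell into round spermatids on 28 and 12 UMIs (log2 fold change -1.53 ± 0.46 (SE), edgeR adjusted p = 0.00258).

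The shared light chains comprise the Dynll, Dynlrb (roadblock) and Dynlt (Tctex) families. Dynll2 was at 37.7 to 272 CPM (median 142) in pachytene-like and 186 to 861 CPM (median 303) in meiotic division-like sums, which overlapped. It was at 1041 to 2682 CPM (median 1698) in round spermatid-like sums, all above the meiotic division-like ones, and at 1677 to 3165 CPM (median 2576) in elongating spermatid-like sums, which overlapped with the round ones. It rose at each of these steps, most at the second (log2 fold change 2.44 ± 0.08 (SE), edgeR adjusted p = 1.98e-188), and by 1.14 at the last. Dynll1, its paralog, was at 546 to 1066 CPM (median 837) in round and 811 to 1529 CPM (median 1149) in elongating spermatid-like sums (log2 fold change 1.00 ± 0.08 (SE), edgeR adjusted p = 5.44e-38), with overlap. Dynlt3, the X-linked Tctex light chain, was low in pachytene-like cells, at 8.12 ± 6.58 CPM on 9 UMIs, and in meiotic division-like cells, and came on in round spermatids. It went there from 0 to 36.8 CPM (median 9.61) to 44.0 to 177 CPM (median 104), with no overlap (log2 fold change 3.46 ± 0.20 (SE), edgeR adjusted p = 1.04e-62), and its Sertoli-like mean was 173 CPM.

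Over the libraries of all strains, the roadblock light chains moved in opposite directions at pachytene. Dynlrb1 was at 0 to 337 CPM (median 152) in the 10 leptotene/zygotene-like and 6.72 to 86.6 CPM (median 13.5) in the matching pachytene-like sums, and fell (log2 fold change -3.06 ± 0.37 (SE), edgeR adjusted p = 9.11e-15). In the 4 wild-type libraries with leptotene/zygotene-like cells it was 0, 48.0, 202 and 307 CPM. Dynlrb2, the paralog known from testis and ciliated tissue, rose at that step over the libraries of all strains (log2 fold change 1.46 (adjusted p = 5.74e-05), edgeR). In wild-type libraries alone Dynlrb2 did not pass (log2 fold change 0.74, edgeR adjusted p = 0.445). Its wild-type mean was 312 ± 71.1 CPM in meiotic division-like cells (SD, n = 11), where Dynlrb1 stood at 10.8 ± 21.8 CPM. The further fall of Dynlrb1 into meiotic division rested on 14 and 17 UMIs (log2 fold change -1.72 ± 0.55 (SE), edgeR adjusted p = 0.00567) and did not pass without wild-type library 7. Dynlrb2 then fell from 179 to 318 CPM (median 255) in round to 0 to 87.7 CPM (median 59.3) in elongating spermatid-like sums, with no overlap (log2 fold change -1.64 ± 0.12 (SE), edgeR adjusted p = 9.87e-39).

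**Figure D4:**
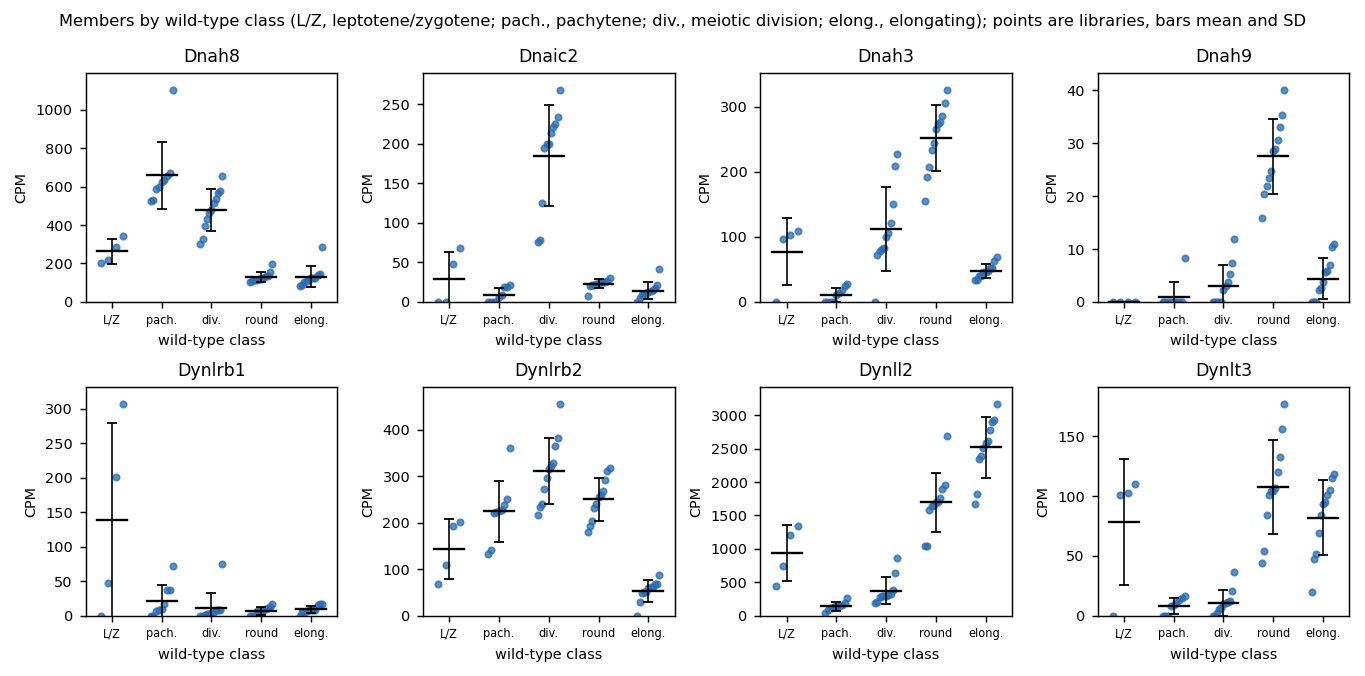
Level in CPM of 8 members in each wild-type class; each point is a library, and the bars are the mean and SD. Dnaic2 is high in meiotic division alone (mean 185 CPM) and Dnah9 in round spermatids alone (27.5 CPM). Dynlrb1 is highest before pachytene, and Dynlrb2 is highest in meiotic division (312 CPM) and lowest in elongating spermatids (53.7 CPM).

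The promoters of both roadblock genes, of Dnaic2 and of Dnaaf2 are shown because these members differ in when they were high. The sequences are from RefSeq (GRCm38.p6), 250 bases before to 50 bases after the start, 5′ to 3′ on the strand of the gene. For Dnaic2 and Dnaaf2 the start used lies inside the gene, whose outermost 5′ base in RefSeq is chr11:114721341 and chr12:69200083. Capitals mark matches on either strand to GTTGCC, a half-site of the RFX factors of ciliary genes, or to TAACNG, the core bound by MYB proteins, of which Mybl1 acts at pachytene. The windows are chr2:155236283-155236582, plus strand for Dynlrb1, chr8:116504765-116505064, plus strand for Dynlrb2, chr11:114727169-114727468, plus strand for Dnaic2 and chr12:69198380-69198679, minus strand for Dnaaf2.
Dynlrb1: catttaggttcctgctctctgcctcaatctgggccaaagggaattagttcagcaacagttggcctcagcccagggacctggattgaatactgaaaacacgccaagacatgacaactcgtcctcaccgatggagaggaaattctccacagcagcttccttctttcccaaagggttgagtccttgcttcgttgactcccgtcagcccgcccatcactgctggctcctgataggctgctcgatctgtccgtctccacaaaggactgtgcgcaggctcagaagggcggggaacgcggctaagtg
Dynlrb2: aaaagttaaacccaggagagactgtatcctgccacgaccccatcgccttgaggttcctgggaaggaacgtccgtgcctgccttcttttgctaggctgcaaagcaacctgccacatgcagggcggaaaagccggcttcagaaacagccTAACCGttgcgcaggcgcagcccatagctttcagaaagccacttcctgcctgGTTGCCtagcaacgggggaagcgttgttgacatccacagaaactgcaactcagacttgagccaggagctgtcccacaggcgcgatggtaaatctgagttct
Dnaic2: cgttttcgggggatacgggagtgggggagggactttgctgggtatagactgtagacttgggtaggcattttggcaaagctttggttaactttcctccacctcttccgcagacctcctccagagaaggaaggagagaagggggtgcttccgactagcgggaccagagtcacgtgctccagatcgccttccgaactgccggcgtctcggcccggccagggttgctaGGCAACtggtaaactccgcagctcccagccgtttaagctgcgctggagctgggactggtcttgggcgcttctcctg
Dnaaf2: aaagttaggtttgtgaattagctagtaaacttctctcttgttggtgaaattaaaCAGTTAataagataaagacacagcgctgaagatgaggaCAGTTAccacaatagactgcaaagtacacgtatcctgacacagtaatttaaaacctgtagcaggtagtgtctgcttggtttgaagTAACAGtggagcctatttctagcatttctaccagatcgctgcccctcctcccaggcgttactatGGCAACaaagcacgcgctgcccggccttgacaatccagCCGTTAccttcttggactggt

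The window of Dynlrb1 held neither motif. That of Dynlrb2 held both, with GTTGCC 51 bases and TAACNG 103 bases before the start, Dnaic2 held 1 GTTGCC 26 bases before it, and Dnaaf2 held 1 GTTGCC and 4 TAACNG matches. Windows were found for 32 of the 40 members. GTTGCC was in 6 of 21 axonemal, 3 of 5 cytoplasmic and 2 of 6 shared members, and in 12.5% of 32851 promoters. TAACNG was in 11 of 21, 1 of 5 and 3 of 6, and in 23.3% of all promoters, and the cyclic AMP response element TGACGTCA was in 1 axonemal member and in 1.79% of all. The near-identical copies Dnah7a, Dnah7b and Dnah7c each held both GTTGCC and TAACNG and were counted separately, so the axonemal counts are not of independent promoters. The motifs do not overlap each other in letters, and a match is a description of the sequence, not evidence of binding.

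The Dynlt1 copies on chromosome 17 were uncertain, since Dynlt1a, Dynlt1b, Dynlt1c and Dynlt1f and a pseudogene outside the set are near-identical. Dynlt1a and Dynlt1f had their highest means in meiotic division-like (258 ± 189.7 CPM) and pachytene-like cells (288 ± 139.7 CPM), rose into pachytene by 1.10 and 1.78 on the log2 scale and fell at both spermatid steps. Dynlt1c had 9 UMIs in the wild-type germ classes, and its fall from 6 UMIs in pachytene-like to 1 UMI in meiotic division-like sums (log2 fold change -3.23 ± 1.06 (SE), edgeR adjusted p = 0.00777) had a ratio of 0.042 with a counting interval of 0.000914 to 0.347. Over whole libraries, Dynlt1b stood at 173 CPM in wild-type library 2 and at 2.8 to 23.3 CPM in the other 10.

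Of the 5 falls into pachytene, those of Dynlt3, Dnah3 and Dynll2, which were higher again in round spermatid-like cells, were measured in sums that also held spermatid marker RNA, whose part in these falls was not tested. Dynll2 was at 0 to 1345 CPM (median 457) in leptotene/zygotene-like and 49.9 to 289 CPM (median 144) in pachytene-like sums (log2 fold change -2.14 ± 0.21 (SE), edgeR adjusted p = 1.44e-21), Dynlt3 at 0 to 109.8 CPM (median 80.5) and 0 to 16.4 CPM (median 7.43) (log2 fold change -2.95 ± 0.58 (SE), edgeR adjusted p = 5.89e-06), and Dnah3 at 0 to 109.8 CPM (median 0) and 0 to 57.7 CPM (median 7.1) (log2 fold change -2.30 ± 0.64 (SE), edgeR adjusted p = 0.00209). All 3 overlapped, and Dnah3 did not pass without Cul4a-/- library 1. In Mlh3-/- libraries, which held no spermatid-like cells, the elongating spermatid markers summed to 49.7 CPM in leptotene/zygotene-like cells (n = 3, 2 of 12 markers detected), against 21634 CPM in wild-type. There Dnah3 had 0 UMIs in all 3 leptotene/zygotene-like sums, and with these libraries alone Dynll2 had a log2 fold change of -1.77 (edgeR adjusted p = 0.12), Dynlt3 of -3.77 (adjusted p = 0.338) and Dynlrb1 of -2.90 (adjusted p = 0.104). These were of the same sign as with all strains, where Dynlrb1 had -3.06, and none passed with the fewer libraries. This fit of Mlh3-/- libraries was chosen after seeing the data, and 5 members rose and 0 fell in it: Dnaaf1, Dnah8, Dnah2, Dnah17 and Dnah7a. The share of all genes called in it is not given here, so this count is description only.

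In Mlh3-/- testes, which held 634 pachytene-like but 0 spermatid-like cells, several heavy chains were higher in pachytene-like cells than in wild-type. Of 37 members tested, 8 were higher and 3 lower, where 3.64% of 15321 genes were higher and 6.0% lower, and the medians were 0.35 over members and 0.18 over all genes. The 8 were Dnah2, Dnah7b, Dnah7c and Dnah12 of the inner arms, Dnah8 and Dnah17 of the outer arms, and the heavy chains Dync1h1 and Dync2h1 of both cytoplasmic dyneins, and the 3 were Dnah3, Dynll2 and Dnal4. All 8 encode heavy chains, and none of the 5 axonemal intermediate and light chains or 3 assembly factors was higher. Reads may have been split between Dnah7a, which was not among the 8, Dnah7b and Dnah7c, so the calls of single copies are uncertain. Dnah7c was at 10.9 to 95.9 CPM (median 57.5) in 9 wild-type and 103 to 278 CPM (median 159.8) in 6 Mlh3-/- sums (log2 fold change 1.55 ± 0.27 (SE), edgeR adjusted p = 2.11e-05). Dnah2 was at 28.2 to 60.5 CPM (median 41.1) and 61.0 to 213 CPM (median 111) (log2 fold change 1.45 ± 0.31 (SE), edgeR adjusted p = 0.000461). For both, every Mlh3-/- library lay above every wild-type one. With a block on replicate number 0 members passed, and the share of all genes under that setting is not given here.

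Dnah7b and Dync1h1 overlapped between strains. Dnah7b was at 51.0 to 264 CPM (median 87.3) in wild-type and 132 to 464 CPM (median 183) in Mlh3-/- (log2 fold change 1.26 ± 0.28 (SE), edgeR adjusted p = 0.00101). Dync1h1 was at 18.8 to 119.9 CPM (median 56.8) and 98.3 to 188 CPM (median 124) (log2 fold change 1.20 ± 0.27 (SE), edgeR adjusted p = 0.000953). Dnah8 had a mean of 660.0 ± 174 CPM in wild-type (SD, n = 9) and 1312 ± 502 CPM in Mlh3-/- (n = 6). Among the lower ones, Dnal4 was at 124 to 218 CPM (median 169) in wild-type and 60.9 to 135 CPM (median 109.6) in Mlh3-/- (log2 fold change -0.61 ± 0.20 (SE), edgeR adjusted p = 0.0326), and it did not pass without Mlh3-/- library 4 or 5. Dynll2 was at 37.7 to 272 CPM (median 142) and 26.9 to 154 CPM (median 54.1) (log2 fold change -1.13 ± 0.27 (SE), edgeR adjusted p = 0.00246). Dnah3 had 9 UMIs in wild-type and 3 in Mlh3-/-, a ratio of 0.0736 (0.0128 to 0.295, edgeR adjusted p = 0.0168), and did not pass without Mlh3-/- library 4.

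**Figure D5:**
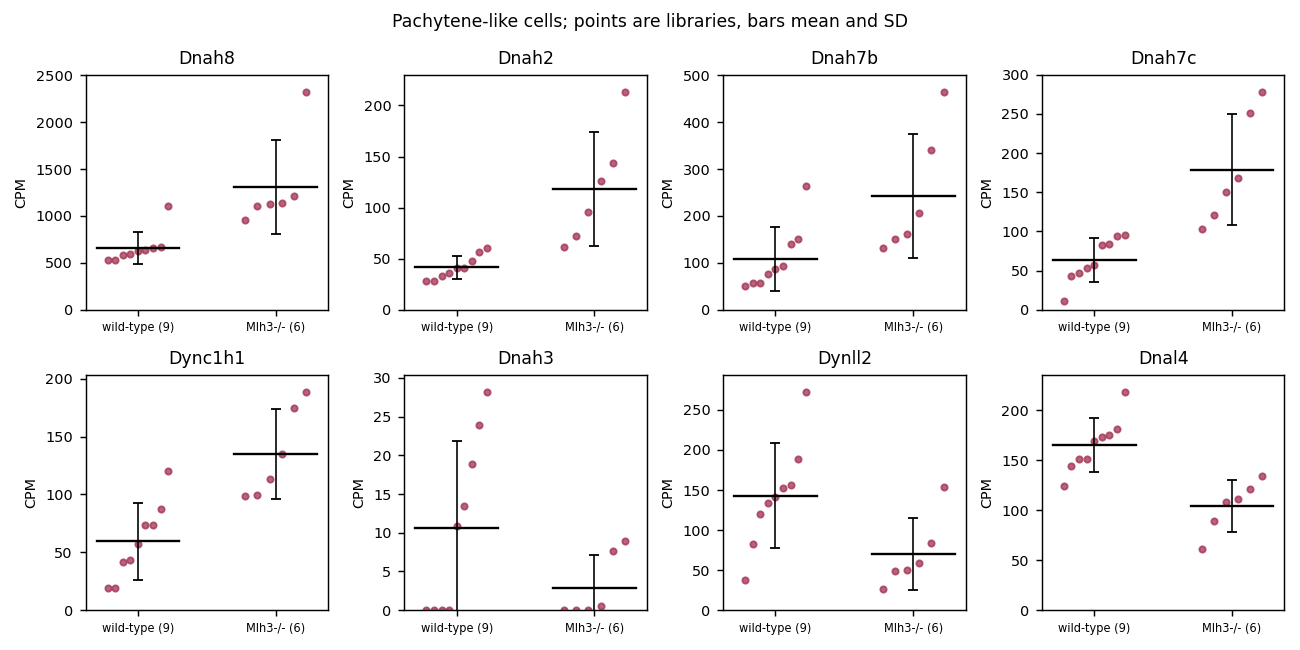
Level in CPM of 8 members in pachytene-like cells of wild-type (9 libraries) and Mlh3-/- (6 libraries); each point is a library, and the bars are the mean and SD. For Dnah2 and Dnah7c the Mlh3-/- points lie above all wild-type points, for the other 6 members the points overlap, and Dnah3, Dynll2 and Dnal4 have the lower mean in Mlh3-/-.

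Other values differed between these sums as well. The sums held 41707 to 148832 UMIs in wild-type and 111498 to 1803106 UMIs in Mlh3-/-. The elongating spermatid markers summed to 5548 CPM (3514 to 10641) in wild-type and 128 CPM (92.7 to 179) in Mlh3-/- pachytene-like cells, where 5 of 12 were detected and Prm2, Prm3, Tnp1, Smcp, H1fnt, Cabs1 and Gapdhs were at 0. The 10 Sertoli markers summed to 157 CPM (99.2 to 239.8) and 715 CPM (228 to 1833), with 9 detected in both strains and Rhox8 at 0, and the 7 Leydig markers to 25.7 CPM (0 to 48.0), with Hsd3b1 and Hsd17b3 at 0, and 764 CPM (93.9 to 2337), with all 7 detected. The limit on mitochondrial rRNA removed all but 2786 of the 9606 Mlh3-/- cells that passed the earlier filters, and without that limit 8 members were again higher and 3 lower. Cluster 7 held 87.5% of the wild-type and 83.3% of the Mlh3-/- pachytene-like cells. The part of these values in the differences was not tested, and with at least 50 cells a library 4 of the members passed, 3 higher and 1 lower.

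Over whole libraries, where fewer cells of a type and less RNA per cell cannot be told apart, several members that were high in spermatid-like cells were lower in Mlh3-/-, while Dynlt3 did not pass (log2 fold change 0.04). Of 40 members 21 were higher and 9 lower, where 47.4% of 23386 genes were higher and 19.4% lower, with medians of 0.67 and 0.84. With factors over all genes, which put the median of all genes at 0.16, the count was 14 higher and 15 lower, beside 32.7% and 28.6% of all genes. Dnah1, Dync1li2 and Dync2li1 changed sign. Dnah3 was at 113 to 162 CPM (median 133) in 11 wild-type and 0.789 to 2.22 CPM (median 1.27) in 6 Mlh3-/- libraries, with no overlap (log2 fold change -6.72 ± 0.25 (SE), edgeR adjusted p = 5.11e-19). Dynll2 was at 703 to 1859 CPM (median 1278) and 61.2 to 312 CPM (median 109.7) (log2 fold change -2.78 ± 0.34 (SE), edgeR adjusted p = 4.02e-08), also with no overlap. Dnah5 (log2 fold change -2.33 ± 0.55 (SE), edgeR adjusted p = 0.000506, on 64 and 8 UMIs) and Dnaaf3 (log2 fold change -1.45 ± 0.23 (SE), edgeR adjusted p = 4.19e-06) were lower too, and so were Dnali1, Dnah9, Dnal4, Dynll1 and Dynlrb2.

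All 7 cytoplasmic members were higher in whole Mlh3-/- libraries, against 11 higher and 6 lower of 23 axonemal ones and 2 higher and 3 lower of 9 shared light chains. Markers of somatic cells were higher there too: the Leydig markers summed to 1336 to 9180 CPM in Mlh3-/- and 0 to 390 CPM in wild-type libraries, and the Sertoli markers to 1050 to 5442 and 210 to 642 CPM. Of the 2786 Mlh3-/- cells kept, 580 were Leydig-like, 170 Sertoli-like and 542 in clusters named by erythroid markers, against 44, 111 and 62 of 25052 in wild-type. Whole libraries also held the cells that the limit on mitochondrial rRNA removed from the classes, and the part of these values in the differences was not tested. Under factors over all genes Dync1li2 and Dync2li1 changed sign, and Dync1h1 and Dync1i2 did not pass. Dync1li1 was at 3.58 to 8.54 CPM (median 6.6) in wild-type and 16.7 to 39.9 CPM (median 27.6) in Mlh3-/- (log2 fold change 2.34 ± 0.24 (SE), edgeR adjusted p = 2.3e-09). Dynlrb1, the roadblock chain of early germ cells, was at 0 to 14.9 CPM (median 10.9) and 30.9 to 132 CPM (median 59.9) (log2 fold change 3.02 ± 0.30 (SE), edgeR adjusted p = 1.05e-09). Both differed without overlap. Dynlt1c was higher on 23 and 70 UMIs (log2 fold change 2.53 ± 0.50 (SE), edgeR adjusted p = 6.43e-05), and the antisense symbol Dnah2os had 3 UMIs in wild-type and 66 in Mlh3-/-, a ratio of 36.7 (12.0 to 182). It had 0 UMIs in every named wild-type germ class, and since the sources used here do not state whether counting used strand, its reads and those of Dnah2 cannot be told apart.

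In Cul4a-/- testes the number of members that passed outside pachytene-like cells depended on the libraries and settings. In pachytene-like cells 0 of 37 passed, beside 0.392% of 15321 genes, with 2 members at an unadjusted p under 0.05 and 0 by DESeq2. In round spermatid-like cells 1 of 38 passed, beside 5.29% of 17093 genes, with 7 at an unadjusted p under 0.05. This was Dynlrb1, at 0 to 16.5 CPM (median 7.62) in 11 wild-type libraries and 17.4 and 20.6 CPM in the 2 Cul4a-/- libraries, with no overlap (log2 fold change 1.19 ± 0.34 (SE), edgeR adjusted p = 0.0314). Under other settings the count there was 3 with DESeq2, 7 with HiSeq libraries of mechanical dissociation and 9 at Leiden resolution 1, where 1 was higher and 8 lower. The shares of all genes under these settings are not given here, so these values show only that the count moved. In elongating spermatid-like cells 0 of 38 were higher and 3 lower, and 14 were at an unadjusted p under 0.05, beside 2.4% and 1.92% of 14722 genes, with medians of -0.60 over the members and -0.03 over all genes. Dnah12 was at 18.3 to 81.1 CPM (median 31.9) in wild-type and 12.4 and 10.99 CPM in Cul4a-/- (log2 fold change -1.32 ± 0.34 (SE), edgeR adjusted p = 0.0121). Dnah3 was at 33.0 to 68.5 CPM (median 46.5) and 20.8 and 19.4 CPM (log2 fold change -1.06 ± 0.29 (SE), edgeR adjusted p = 0.0204). Neither overlapped, whereas Dnal4, at 16.4 to 63.2 CPM (median 42.0) and 18.5 and 11.5 CPM, did (log2 fold change -1.36 ± 0.33 (SE), edgeR adjusted p = 0.00653). Over whole libraries 1 of 40 passed, beside 2.18% of 23386 genes: Dnah3 was at 113 to 162 CPM (median 133) in wild-type and 61.4 and 85.8 CPM in Cul4a-/- (log2 fold change -0.81 ± 0.22 (SE), edgeR adjusted p = 0.0471), with no overlap. In elongating spermatid-like cells library totals gave 8 members, beside 1.64% of all genes higher and 4.69% lower, and HiSeq libraries of mechanical dissociation gave 7. DESeq2 and those HiSeq libraries gave 3 each over whole libraries. Without either Cul4a-/- library 0 passed in the classes or over whole libraries.

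Each of these Cul4a-/- calls was lost when leaving out either Cul4a-/- library. The classes were held by different clusters in the strains: clusters 24 and 26 held 42.4% and 37.6% of the Cul4a-/- round spermatid-like cells, and clusters 18, 10, 23 and 27 28.3%, 27.3%, 21.7% and 17.4% of the wild-type ones. Cluster 14, at 54.4% of the Cul4a-/- elongating spermatid-like cells, was 5.77% wild-type, and its median cell held 3036 UMIs. The elongating spermatid markers summed to 188193 CPM in that class of Cul4a-/- (187585 to 188802) and 133292 CPM (103716 to 148563) in wild-type, all 12 detected in both, and the part of this in the lower calls was not tested. Meiotic division-like cells were not compared, since clusters 21 and 40 held 82.4% and 14.9% of them in Cul4a-/-, and cluster 21 was 0.18% wild-type.

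Under other settings a few members passed in CNP testes, as given in the last section, but none passed in the fits as reported. The counts were 0 of 37 in pachytene-like cells, beside 0.307% of all genes, 0 in round spermatid-like cells, beside 0.357%, 0 in elongating spermatid-like cells, beside 0.346%, and 0 over whole libraries, beside 0.376%, in edgeR's quasi-likelihood test. At an unadjusted p under 0.05 there were 3, 4, 2 and 5 members, and DESeq2 called 1, 0, 0 and 0. Dnah8 was at 1037 and 462 CPM in the 2 CNP pachytene-like sums, Dynll2 at 2665 and 2921 CPM in the elongating spermatid-like sums and Dnah3 at 340.2 and 279 CPM in the round spermatid-like sums, and all 3 overlapped with the wild-type sums. Groups did not overlap for 2 higher and 2 lower members in pachytene-like cells, 3 higher in round and 2 lower in elongating spermatid-like cells. Over whole libraries 6 members were higher without overlap (Dnaaf2, Dnal4, Dync1li1, Dync1li2, Dync2li1 and Dynlrb1), and none of them passed. The share of all genes whose groups did not overlap is not given here, so these counts are description only. Dync1li2 was at 122 to 192 CPM (median 176) in wild-type and 222 and 237 CPM in CNP libraries, and Dynlrb1 at 0 to 14.9 CPM (median 10.9) and 19.3 and 22.7 CPM. In pachytene-like cells the lower Dnah8 sum lay below the wild-type range of 527 to 1103 CPM (median 624.5), and in round spermatid-like cells the higher Dnah3 sum lay above that of 156 to 326 CPM (median 266). With 2 libraries of 97 pachytene-like cells in all, differences of the size seen in Mlh3-/- may not have been detectable for low members.

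The sorted libraries, 1 per population and so without a test, held populations gated by DNA content or a reporter. Axonemal members summed to 209 CPM in spermatogonia, 3846 CPM in primary spermatocytes, 2114 CPM in secondary spermatocytes and 2138 CPM in spermatids. Cytoplasmic members summed to 752, 896, 378 and 325 CPM, and shared light chains to 2124, 2577, 3064 and 3904 CPM. Dynlrb1 was at 341 CPM (309 to 377) in spermatogonia and 9.34 CPM (0.236 to 52.0) in primary spermatocytes (exact Poisson intervals for counting error only), while Dynlrb2 was at 1.71 CPM (0.207 to 6.18) and 196 CPM (121 to 299.7). Dnah8 was at 17.1 CPM (10.45 to 26.4) in spermatogonia and 915 CPM (743 to 1115) in primary spermatocytes, and Dynll2 went from 467 CPM (346 to 615) in primary spermatocytes to 2176 CPM (1992 to 2372) in spermatids. Dnaic2 had 0 UMIs in spermatogonia, which allows up to 2.57 CPM, and 56.0 CPM (20.6 to 122) in primary spermatocytes. Of the 188 sorted primary spermatocytes kept, 14 fell in pachytene-like clusters and 158 in a cluster named by erythroid markers, although the hemoglobin markers summed to 0 in that library. Of the 154 sorted secondary spermatocytes kept, 6 fell in meiotic division-like clusters, 39 in round and 76 in elongating spermatid-like clusters, so that the levels of that library are those of its label and not of 1 cell class.

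Known partners of the dyneins were tested at the same steps. Of 61 genes in 7 lists (dynactin, regulators and adaptors, dynein-2 partners, docking factors, further preassembly factors, further axonemal chains and the nexin-dynein regulatory complex), 58 were tested at each step, and 26 rose and 6 fell into pachytene, where 9.41% of all genes rose and 17.2% fell. Into meiotic division 14 rose and 19 fell (14.7% and 24.3% of all genes), into round spermatids 10 rose and 36 fell (23.7% and 26.6%), and into elongating spermatids 8 rose and 27 fell (17.5% and 20.2%). The medians at the 4 steps were 1.13, -0.14, -0.68 and -0.35. With factors over all genes the count into meiotic division was 33 up and 6 down (26.5% and 13.6% of all genes), and with library totals 17 up and 14 down (18.0% and 20.8%), so that no direction is given there. In the list of 12 further preassembly factors 10 rose into pachytene and 11 fell into round spermatids. Ccdc39 and Ccdc40, which are in that list, are known to set the spacing of inner arms along the doublets and not for preassembly, and both are among the genes that rose and then fell. Dyx1c1, a preassembly factor, fell into round spermatids too (log2 fold change -3.48, edgeR adjusted p = 5.43e-17). It rose again into elongating spermatids (log2 fold change 2.07, edgeR adjusted p = 0.000912). All 7 genes tested of the nexin-dynein regulatory complex, which links the doublets, fell into elongating spermatids. Of 12 dynactin subunits, which join dynein-1 to its cargo, 1 rose and 0 fell into pachytene, and 3 rose and 7 fell into round spermatids. Tctex1d1, a Tctex-type chain, rose in both spermatid steps (by 2.97 and 1.95), and Fbxl13 of the regulatory complex rose into meiotic division (by 2.97), where Bicd2, a cargo adaptor of dynein-1, fell (log2 fold change -3.25).

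Between strains, 2 of the 58 partners were higher and 3 lower in Mlh3-/- pachytene-like cells (3.64% and 6.0% of all genes). Tctex1d1 and Ccdc63, an outer arm docking factor, were lowest there (log2 fold changes -4.96 and -4.28), and over whole libraries they had -8.54 and -8.98. The wild-type pachytene-like sums also held more spermatid marker RNA, and its part in these values was not tested. Of the partners, 31 of 60 were higher and 12 lower over whole libraries (47.4% and 19.4% of all genes). With factors over all genes the latter count was 13 higher and 25 lower (32.7% and 28.6%). In Cul4a-/- round spermatid-like cells Nde1, a dynein-1 regulator, was higher (1.96, edgeR adjusted p = 0.000308), and in elongating spermatid-like cells 0 were higher and 4 lower, led by Lrrc48 of the regulatory complex (-1.70), beside 2.4% and 1.92% of all genes. The count there was 0 higher and 9 lower with library totals (1.64% and 4.69% of all genes), and 1 higher and 3 lower with factors over all genes (4.84% and 1.14%). In CNP testes Ttc25, an outer arm docking factor, was the 1 partner to pass in round spermatid-like cells (1.12), in elongating spermatid-like cells (1.57) and over whole libraries (1.00, edgeR adjusted p = 0.046, and 0.0537 with factors over all genes, where the call was lost). Whether the CNP transgene itself carries Ttc25 is not given in the sources used here, and its part in these calls was not tested. None of the 58 passed in pachytene-like cells of Cul4a-/- or CNP.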

How the data were processed

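The authors aligned Drop-seq reads to mm10 (GRCm38) with STAR 2.5.3a, per the labels' processing notes, and deposited raw UMI counts per gene symbol and barcode for each library. All values of the 25 tables were whole counts. The steps that follow were run on those deposited counts. Kept cells had at least 200 UMIs and 50 genes, lay no further than 1 SD under their library's mean, and had a scaled mt-Rnr2 level of at most 2. Doublets were not called. Counts were clustered without the members (40 principal components, 20 neighbours, Leiden resolution 2), and clusters were named by markers. Counts were summed per library and class, and genes with at least 5 counts entered edgeR's quasi-likelihood fit and test (edgeR 4.0.16, R 4.3.3, Benjamini-Hochberg adjustment at 0.05). Steps between classes had the library as a block, because the classes of a library share their source. In comparisons of strains all strains shared a fit, and libraries are the replicates. Labels do not tie libraries to animals: Mlh3-/- libraries 2 and 3, and wild-type libraries 3 and 7, share an age and may share a mouse. Without Mlh3-/- library 2 or 3, 11 members were called in pachytene-like cells and 29 over whole libraries.

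TMM factors were taken over the 2000 most abundant genes instead of all genes, because, tested on simulated data, TMM over all genes moved the fold changes of unchanged genes in most fits of class sums. The simulated sums shared the same composition apart from the genes changed on purpose, which the real classes do not. They therefore cannot show which scaling suits the steps between classes. TMM over all genes, library totals and Mlh3-/- or wild-type libraries alone were alternatives chosen after seeing the data. The others were DESeq2 1.42.0, edgeR's filterByExpr, no filter, no library block or a block on replicate number, at least 50 cells, HiSeq libraries of mechanical dissociation, Leiden resolution 1, clustering with the members, the UMI and gene filters only, and each library left out. In comparisons of strains no wild-type library was left out. The members and lists were chosen with earlier results of these data known.

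Levels per library are given for up to 4 members in each direction with the largest changes among those that passed in a comparison, and for up to 3 partner genes the fold change. Members named beyond this rule were chosen after their values were seen. Members with at least 100 UMIs in wild-type germ classes are described by class. A level of 0 allows up to 3 counts, and counting intervals are 95% and cover counting error only. Class sums in the fits held 2970 to 3259517 UMIs. Clustering used Python 3.11.15, numpy 2.4.6, pandas 2.3.3, scipy 1.17.1, scikit-learn 1.9.0, leidenalg 0.10.2 and igraph 0.11.9. Coordinates and promoters came from RefSeq (GRCm38.p6). The hormad1 strain was not analysed here.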

Additional observations from a re-analysis of the deposited data

Results flagged for a closer look

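In 4 of the 43 groups of 4 to 10 libraries looked at, 1 library stood far from the others by Dixon's 95% criterion, which flags about 1 group in 20 by chance. In wild-type leptotene/zygotene-like cells, Dynlt3 was at 0 CPM in library 8 and at 101 CPM or more in the other 3, and Dnah3 was at 0 CPM in library 10 and at 96.1 CPM or more in the other 3. These 4 sums held only 9105 to 29350 UMIs, so that 0 and the other levels lay only a few UMIs apart. In wild-type pachytene-like cells, library 3, sequenced on a MiSeq, was highest of 9 for both Dnah7a, at 312 CPM with the next at 174 CPM, and Dnah7b, at 264 CPM with the next at 150.1 CPM. The part of platform in these values was not tested.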

How the results depend on the processing

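Of 946 values of the 51 named member results under the alternatives, 886 kept their direction and their side of the threshold, 59 no longer passed and 1 turned, that of Dnah8 from round to elongating spermatid-like cells with library totals (-0.11 on the log2 scale). Under every alternative run, 26 of the 51 kept their call. Of 213 counts of members called, 184 stayed within 1.5 times the reported count. The others were, for pachytene-like to meiotic division-like cells, 13 with at least 50 cells, and for the step into pachytene, 5 with Mlh3-/- and 5 with wild-type libraries alone. For Mlh3-/- against wild-type in pachytene-like cells there were 4 with at least 50 cells. For CNP in pachytene-like cells there was 1 with DESeq2, with no filter and with TMM over all genes, and in round spermatid-like cells 1 with HiSeq libraries of mechanical dissociation. For Cul4a-/- in round spermatid-like cells there were 3 with DESeq2, 7 with HiSeq libraries of mechanical dissociation, 6 with at least 50 cells, 9 at Leiden resolution 1 and 2 with the UMI and gene filters only. For Cul4a-/- in elongating spermatid-like cells there were 5 with filterByExpr, 8 with library totals and 7 with HiSeq libraries of mechanical dissociation, and over whole libraries 3 with DESeq2 and 3 with HiSeq libraries. Fewer libraries or genes entered the fits with at least 50 cells, HiSeq libraries or filterByExpr; elsewhere the cause was not tested. At least 50 cells left no fit for the step into pachytene.

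Leaving out each library in turn gave 16 to 25 members called into pachytene, 21 to 24 into meiotic division, 31 to 32 into round and 18 to 19 into elongating spermatids. In comparisons of strains only the libraries of the strain set against wild-type were left out in turn. That gave 9 to 11 and 29 to 30 for Mlh3-/- in pachytene-like cells and whole libraries, and 0 to 0 for Cul4a-/- in round and in elongating spermatid-like cells and over whole libraries.

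Replicate numbers are shared between strains but did not pair the libraries, since the correlations of same-numbered libraries ran from -0.43 to 0.34. With a block on replicate number, 0 members were called for Mlh3-/- in pachytene-like cells, 3 for Cul4a-/- and 3 for CNP in round spermatid-like cells, 1 for CNP in pachytene-like cells and 4 for CNP over whole libraries. Without the library block, the 4 steps gave 19, 21, 31 and 17 calls. The shares of all genes under either setting are not given here, so these counts are description only.

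Depth limited the early classes most, since the smallest leptotene/zygotene-like sum held 2970 UMIs. With 2 libraries per strain, calls for Cul4a-/- and CNP rest on the spread of the other strains. Fold changes are relative to the factors used, and at the step into pachytene the median of all genes was -0.13 as reported and 0.67 with TMM over all genes.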
